A study of Mus musculus with 4 samples.

Results

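The genes described here are 9 parts of the mTORC1 control system: *Ddit4*, *Slc38a9*, *Rragc*, *Rragd*, *Rheb*, *Rhebl1*, *Mtor*, *Rptor* and *Tsc2*. They were taken by symbol from the 30828 genes counted in both libraries, and all 9 were found. The set was chosen by measured values of these data, namely levels across testis cell kinds and the contrast of *Cnot3*-cKO with control, so the levels and ratios below are descriptions with no test. The samples were testis cells of mice at postnatal day 8, single-cell RNA-seq having been run on cells sorted with antibodies against CD9 and THY1 to enrich germ cells. Control mice carried *Cnot3* flox/flox, and *Cnot3*-cKO mice carried *Cnot3* flox/flox with *Ddx4*-creER, a Cre made active by tamoxifen and driven by sequences of the germ cell gene *Ddx4*. Both groups, controls included, were given 4-OHT, the active form of tamoxifen, in the first days after birth. The sample labels give injections from day 1, with last days of 1 and 2 for the control samples and 3 and 4 for the *Cnot3*-cKO samples. In sample order these last days run 1, 2, 3 and 4, while the study's methods give postnatal days 1 to 3 for neonatal mice. Whether the labels record the true schedule is therefore unclear. No strain was stated, and the number of animals pooled was not given in the sources used here.

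mTORC1 is a kinase complex that promotes protein synthesis and growth when amino acids and growth factors are present. Amino acids act through the Rag GTPases, which hold the complex at the lysosome, and SLC38A9 is a lysosomal membrane transporter that senses arginine and acts on them. Growth factors act through the GTPase RHEB, which the TSC complex switches off, and DDIT4 (also called REDD1), made under hypoxia and other stress, inhibits mTORC1 through TSC. In undifferentiated spermatogonia the transcription factor ZBTB16 is known to activate *Ddit4* and so to restrain mTORC1, whose sustained activity is linked to loss of stem cells, while differentiating spermatogonia have high mTORC1 activity.

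The sequences just upstream of the 3 genes on which the results turn are shown for orientation, from the RefSeq promoter table (GRCm38.p6), read 5′ to 3′ on the strand of the gene and ended before the annotated gene. Capitals mark ACGTG, the core letters of the hypoxia response element, and CCAAT, the letters of the box bound by NF-Y, each searched on both strands (CACGT and ATTGG on the other strand). Such a match is only a description of the letters in the window.
Ddit4, chr10:59951835-59952020, minus strand: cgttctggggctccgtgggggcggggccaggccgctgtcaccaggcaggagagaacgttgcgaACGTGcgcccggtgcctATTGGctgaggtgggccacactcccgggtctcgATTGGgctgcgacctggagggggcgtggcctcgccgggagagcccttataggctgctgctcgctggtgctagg
Slc38a9, chr13:112660516-112660750, plus strand: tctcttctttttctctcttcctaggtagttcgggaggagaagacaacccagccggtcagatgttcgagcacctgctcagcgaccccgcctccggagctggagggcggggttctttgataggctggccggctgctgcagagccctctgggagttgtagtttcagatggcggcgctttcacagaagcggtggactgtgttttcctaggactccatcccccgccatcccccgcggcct
Rragd, chr4:32982748-32982997, plus strand: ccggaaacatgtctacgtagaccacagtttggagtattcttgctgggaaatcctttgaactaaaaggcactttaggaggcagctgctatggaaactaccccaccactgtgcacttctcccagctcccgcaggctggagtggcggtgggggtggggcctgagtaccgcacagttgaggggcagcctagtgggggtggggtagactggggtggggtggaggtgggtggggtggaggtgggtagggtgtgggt

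The *Ddit4* stretch of 186 bases held 1 ACGTG and 2 CCAAT matches, the latter on the other strand. Among 32851 promoter windows cut to the same length, 11.8% held ACGTG and 26.0% held CCAAT. Neither set of letters was found in the *Slc38a9* stretch of 235 bases or the *Rragd* stretch of 250 bases. The *Ddit4* and *Slc38a9* stretches held 16 and 14 CG pairs, against medians of 4 and 5 over windows of those lengths, while *Rragd* held 5 against 6.

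The deposited counts held 1 matrix for each genotype, in which the 2 labelled samples of that genotype were merged, so there was 1 library on each side, no replicate and no test. The titles of those 2 samples start with NS and NOV, and the study named NextSeq and NovaSeq sequencers. Whether the 2 samples were sequencing runs of the same cells was not stated. Levels are in CPM, the unique molecular identifiers (UMIs, single captured transcripts) of a gene per 1000000 UMIs of the cells named, and each 95% interval covers counting error only. A log2 ratio of 1 is a doubling, and every ratio between the genotypes is written as *Cnot3*-cKO over control. Reads came from transcript ends and were not scaled by length, so a level is compared between cells for 1 gene and not between genes. The libraries held 181550221 (control) and 168770743 (*Cnot3*-cKO) UMIs, and 8259 and 9268 cells were kept, with a median of 14475 and 13150 UMIs a cell. Of the called barcodes, 18 appeared in both libraries.

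Cells were named by marker genes, without use of the 9 genes. Germ-like cells numbered 1333 in control and 559 in *Cnot3*-cKO. Their 8 germ markers summed to 2810.4 and 2914 CPM, against 31.1 and 18.7 in Sertoli-like cells. Of the germ-like cells, 255 and 308 were SSC-like (spermatogonial stem cells), 255 and 8 Progenitor-like, 244 and 56 Differentiating-like and 154 and 65 Meiotic-like, control first. A further 212 and 27 stayed unnamed, and 213 and 95 lay in 2 mixed clusters led by somatic genes, where Scrublet, a doublet caller, marked 88.3% and 75.8% of cells. The somatic cells were 2885 and 4362 Sertoli-like, 1263 and 1584 peritubular myoid-like, 2118 and 2129 stroma-like, 55 and 63 macrophage-like and 37 and 42 endothelial-like cells.

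The libraries stood apart in several ways that touch the results. Germ-like cells held 71.1 CPM of *Cnot3* itself in control and 39.5 in the other library, a log2 ratio of -0.85, and the floxed segment was not compared with the counted transcript end. The SSC-like cells came from different clusters in the 2 libraries, 254 control and 37 *Cnot3*-cKO cells in one and 1 and 271 in the other. The SSC-like name of the latter depended on the settings, and at a clustering resolution of 1.0 a cluster of 1 and 271 cells stayed unnamed. SSC-like cells numbered 74 and 268 without doublets, 125 and 88 with libraries centred before clustering, and 30 and 9 with the study's stated filter. The 8 Progenitor-like cells of the *Cnot3*-cKO library were 1.43% of its germ-like cells, and the 255 of the control library were 19.1%. In macrophage-like and endothelial-like cells, germ cell markers stood at 54.4% and 18.8% of their level in cell-free barcodes in control, but at 3.20% and 1.86% in *Cnot3*-cKO, so these small classes are given as values only.

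**Figure D1:**
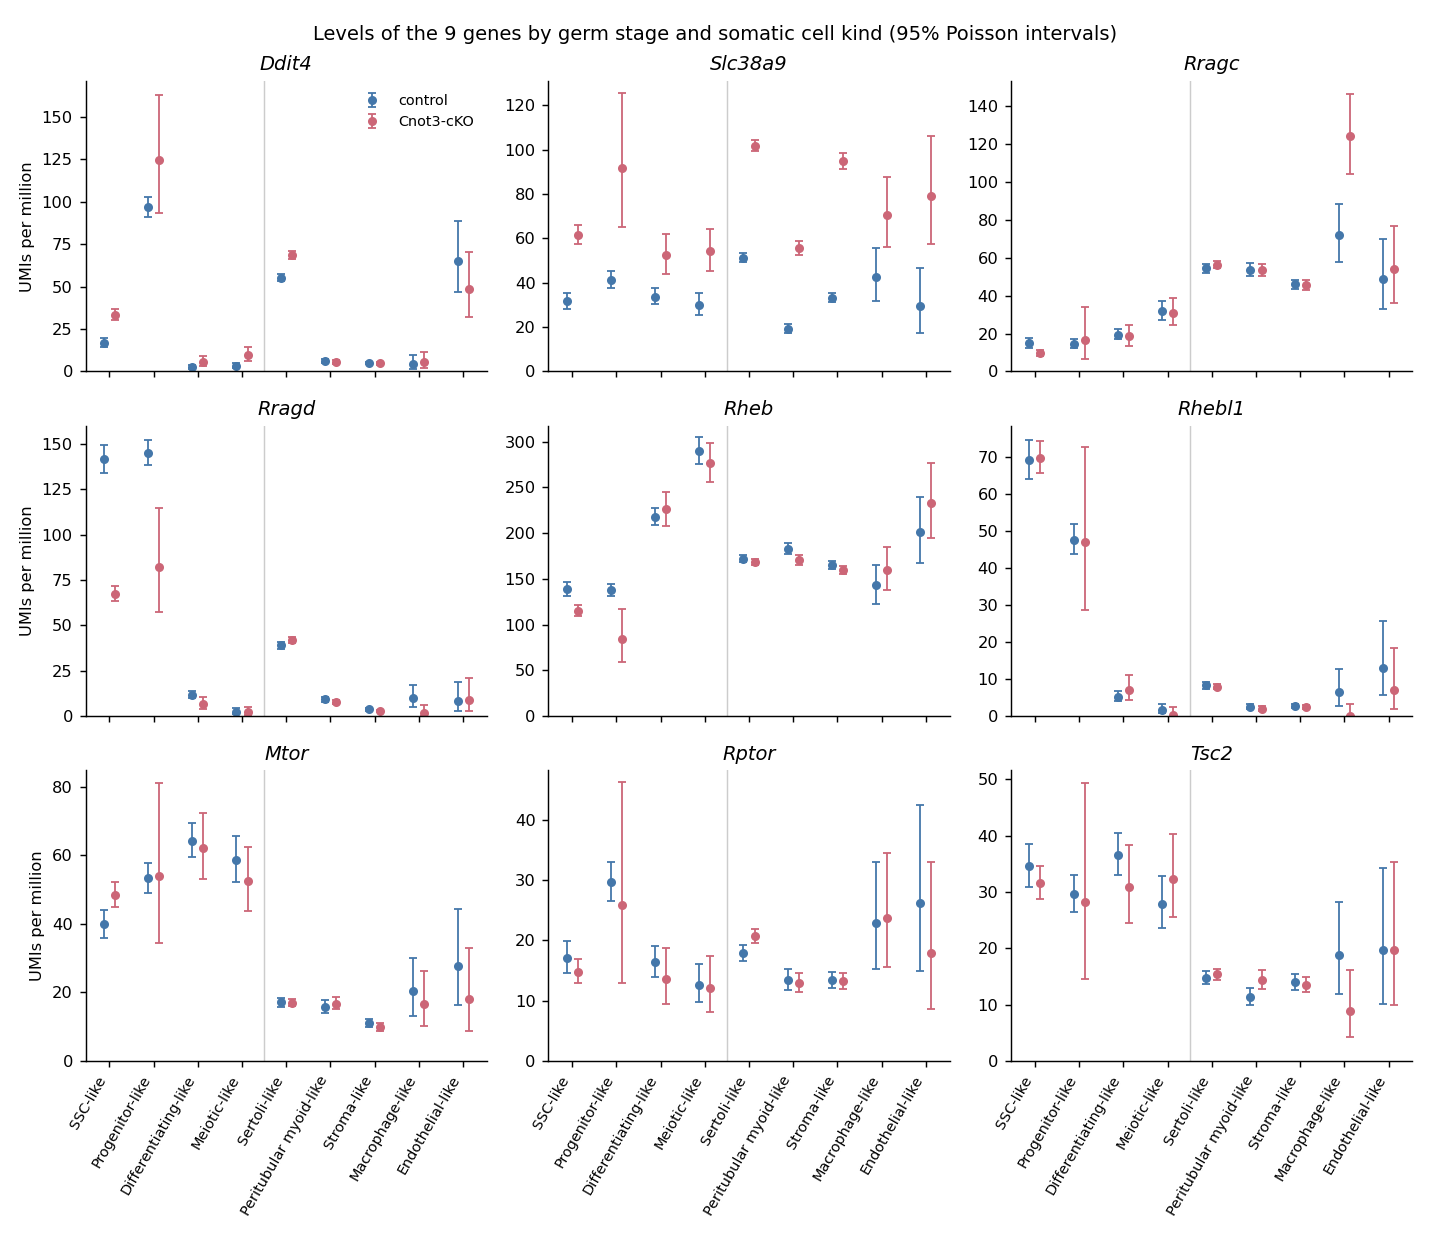
Level of each of the 9 genes in CPM (vertical axis, linear, from 0) in 4 germ stages (left of the grey line) and 5 somatic cell kinds, control in blue and Cnot3-cKO in red, with 95% Poisson intervals. Ddit4 peaks in Progenitor-like cells, Rragd and Rhebl1 in SSC-like and Progenitor-like cells, and Slc38a9 is higher in Cnot3-cKO in every cell kind shown.

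The members were counted against all genes with at least 100 UMIs in the same cells, a gene being called when it was past 1.5-fold with an interval on 1 side of 0. Both contrasts were used in choosing the members, so nothing is read from the shares. In germ-like cells 1 of 9 members was called higher (*Slc38a9*), where 6.8% of all genes were, and 1 lower (*Rragd*), where 3.11% were. In SSC-like cells 2 of 9 were called higher (*Slc38a9*, *Ddit4*) beside 10.1% of genes, and 2 lower (*Rragd*, *Rragc*) beside 4.6%. In Sertoli-like cells 1 of 9 was called higher (*Slc38a9*) beside 1.1%, and 0 lower beside 0.969%. In myoid-like cells 1 of the 8 measured was called higher beside 1.99% and 0 lower beside 0.884%, and in stroma-like cells 1 of 9 higher beside 0.84% and 0 lower beside 0.705%, *Slc38a9* each time.

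Between cell kinds of the control library, 4 of 9 members were called higher in germ-like than in Sertoli-like cells (*Rhebl1*, *Mtor*, *Tsc2*, *Rragd*), beside 39.3% of all genes, and 3 lower (*Rragc*, *Ddit4*, *Slc38a9*), beside 29.7%. *Ddit4* and *Slc38a9* had log2 ratios of -0.81 (-0.90 to -0.72) and -0.63 (-0.72 to -0.54) there. In Progenitor-like cells against the other named stages, 4 of 9 were called higher, beside 14.7%, and 0 lower, beside 16.8%. Those 4 were *Ddit4* at 3.56, *Rragd* at 1.28, *Rptor* at 0.90 and *Rhebl1* at 0.70.

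*Ddit4* (chr10:59949669-59951834, minus strand) had levels far apart along the germ stages. In control it was at 17.0 CPM (95% interval 14.5 to 19.8) in SSC-like cells and 96.7 CPM (95% interval 91.1 to 103) in Progenitor-like cells. It was at 2.503 CPM (95% interval 1.63 to 3.67) in Differentiating-like and 3.10 CPM (95% interval 1.77 to 5.04) in Meiotic-like cells. The Progenitor-like level was 5.68-fold that of SSC-like cells and 38.6-fold that of Differentiating-like cells, and those 255 cells held 61.4% of the 1787 *Ddit4* UMIs of control germ-like cells. *Ddit4* was not used to form or name the stages, which rested on genes such as *Neurog3* and *Sox3*. The Progenitor-like intervals lay above those of every other cell kind in both libraries, and endothelial-like and Sertoli-like cells came next in control with overlapping intervals. At the low end of control, the interval of Meiotic-like cells overlapped those of Differentiating-like, stroma-like, myoid-like and macrophage-like cells.

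The share of cells with the transcript gave the same order. With each cell thinned to 10000 UMIs, 58.8% (52.4 to 65.0) of control Progenitor-like cells held a *Ddit4* UMI (exact Clopper-Pearson interval), against 14.1% (10.0 to 19.1) of SSC-like and 2.11% (0.688 to 4.85) of Differentiating-like cells. Without thinning these shares were 87.5%, 34.1% and 10.2%, and 42.0% of the Progenitor-like cells held 5 or more. The thinned share in control stroma-like cells, where the gene was near its lowest, was 4.46%. Thinning left out 5 Progenitor-like, 7 SSC-like and 7 Differentiating-like cells of the control library.

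Between the genotypes, *Ddit4* gave opposite signs within the named stages and over all germ cells. Over all germ-like cells it was at 31.5 CPM in the control library and 27.1 in the Cnot3-cKO library, a log2 ratio of -0.22 (-0.35 to -0.09). Within each of the 4 named stages the *Cnot3*-cKO level was the higher one. SSC-like cells had 17.0 and 33.5 CPM, a log2 ratio of 0.98 (0.72 to 1.24). Progenitor-like cells had 96.7 and 125, the latter from 53 UMIs of 8 cells, and that ratio of 0.37 (-0.06 to 0.77) did not clear counting error. The study, which used *Ddit4* as a progenitor marker, reported the other direction, a decrease in its progenitor cluster of *Cnot3*-cKO cells. Its clusters were formed together with published data, so the cells are not the same set. Differentiating-like and Meiotic-like cells gave 1.08 (0.02 to 2.07) and 1.64 (0.65 to 2.66), from 14 and 23 *Cnot3*-cKO UMIs. Outside the named stages, the unnamed germ cluster gave 0.46 (-0.33 to 1.18). Both mixed clusters were lower in *Cnot3*-cKO, at -1.06 (-1.61 to -0.54) and -0.52 (-0.92 to -0.14). Progenitor-like cells, which held 61.4% of the germ *Ddit4* UMIs in control, held 7.55% in *Cnot3*-cKO, and SSC-like cells 9.29% and 68.2%.

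The stage makeup was then held to that of control, over the named stages alone. When the *Cnot3*-cKO level of each named stage was weighted by the control library's stage shares, *Ddit4* came to 35.6 CPM for control against 50.4 for *Cnot3*-cKO, or a log2 ratio of 0.50. That weighting gives much of the value to the 8 Progenitor-like cells. The study's stated filter, which kept 241 and 73 germ-like cells, also turned the sign for all germ-like cells, to 1.13 (0.65 to 1.59). When the libraries were centred before clustering, so that stages held cells of both, *Ddit4* was at 12.4 and 22.9 CPM in SSC-like cells and at 90.8 and 101 in Progenitor-like cells, ratios of 0.88 (0.42 to 1.36) and 0.15 (-0.04 to 0.34).

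The SSC-like cells were also read by cluster. In the one that both libraries filled, *Ddit4* was at 17.1 CPM for control against 18.9 for *Cnot3*-cKO, or a log2 ratio of 0.14 (-0.48 to 0.72). In the cluster of 271 *Cnot3*-cKO cells it was at 35.3, and among its leading genes was *Cdkn1a*, a p53 target and cell cycle inhibitor. A thinned *Ddit4* UMI was found in 14.1% (10.0 to 19.1) of control and 21.7% (17.2 to 26.8) of *Cnot3*-cKO SSC-like cells, and 5 or more UMIs before thinning in 3.53% and 9.09%.

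Genes of the signals known to induce *Ddit4* were set beside it in SSC-like cells, as counts past 1.5-fold, where 10.1% of all genes were called higher and 4.6% lower. With 5 to 7 genes a list, a single call is already above those shares, and the counts are descriptions. Of 6 p53 genes measured, 2 were higher and none lower, *Cdkn1a* at 9.23 and 34.5 CPM and the cyclin G gene *Ccng1* at 25.4 and 113. Of 5 genes of the ATF4 amino acid response, 2 were higher and none lower, with asparagine synthetase *Asns* at 19.7 and 48.4. Of 5 hypoxia genes, none was higher and 2 were lower, among them the glucose transporter *Slc2a1* at 24.7 and 12.9. Of 5 glucocorticoid genes, 1 was higher, the clock gene *Per1* at 16.0 and 29.1. Of 7 immediate early and heat shock genes, which respond to cell handling, 4 were higher, among them *Fos* at 10.8 and 20.8 and *Hspa1a* at 12.3 and 23.4. The list medians were 0.20 for p53, 0.39 for ATF4, -0.10 for hypoxia, 0.04 for glucocorticoid and 0.93 for immediate early genes, beside 0.07 for all genes measured there, and their part in the *Ddit4* difference was not tested.

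Outside the germ line, *Ddit4* was highest in Sertoli-like and endothelial-like cells. Sertoli-like cells, the nurse cells of the tubule, held 55.3 CPM (95% interval 53.1 to 57.6) in control, and those of *Cnot3*-cKO held 68.6 CPM (95% interval 66.5 to 70.7), which gave a log2 ratio of 0.31 (0.24 to 0.38). All 5 Sertoli-like clusters had the higher value in *Cnot3*-cKO, with 43.3 to 60.8 in control and 51.1 to 75.6 in *Cnot3*-cKO. The intervals lay above 0 in the clusters with ratios of 0.31 and 0.37, and included 0 in those with 0.21, 0.09 and 0.24. These clusters share the same libraries and are not replicates. Myoid-like cells held 5.87 and 5.34, stroma-like cells 4.86 and 4.67, and their ratios of -0.14 (-0.53 to 0.26) and -0.06 (-0.41 to 0.29) were within counting error. Endothelial-like cells held 65.3 and 48.5 from 40 and 27 UMIs. Control Sertoli-like cells were 11.4-fold above stroma-like cells. In Sertoli-like cells of *Cnot3*-cKO, 2 of 9 immediate early and heat shock genes were also past 1.5-fold higher, beside 1.1% of all genes. In myoid-like cells 6 of 7 measured were, beside 1.99%, and in stroma-like cells 5 of 8, beside 0.84%. The 4 red cell markers summed to 0.578 and 132 CPM in Sertoli-like cells. The part of either set of genes in the *Ddit4* value was not tested.

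The other REDD gene, *Ddit4l* (REDD2), had a different spread. Sertoli-like cells held both genes, and Differentiating-like and Meiotic-like cells held little of either. In control *Ddit4l* was at 337 CPM in stroma-like, 132 in myoid-like and 73.2 in Sertoli-like cells, and between 2.03 and 4.85 in the 4 named germ stages. Thus stroma-like and myoid-like cells, where *Ddit4* was low, carried *Ddit4l*. In SSC-like cells *Ddit4l* was at 3.38 and 7.55, a log2 ratio of 1.16 (0.58 to 1.77).

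*Slc38a9* (chr13:112660751-112738749, plus strand) was present at a similar order of level in all cell kinds and was higher in the *Cnot3*-cKO library in each of them. In control, levels ran from 19.1 CPM (95% interval 17.2 to 21.2) in myoid-like to 51.3 CPM (95% interval 49.1 to 53.5) in Sertoli-like cells. The 4 germ stages lay at 31.7, 41.4, 33.7 and 30.04 in their order of development, and only the Progenitor-like interval stood clear of the other 3. In *Cnot3*-cKO the same 4 stages lay at 61.6, 91.8, 52.3 and 54.1. No *Cnot3*-cKO interval overlapped the control interval of the same germ stage.

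The log2 ratio over all germ-like cells was 0.91 (0.82 to 1.01), and the stages ran from 0.64 (0.34 to 0.92) in Differentiating-like to 1.15 (0.64 to 1.62) in Progenitor-like cells. The somatic cells, in which *Ddx4*-creER is not meant to act, differed too. Each somatic kind but the macrophage-like cells gave a larger ratio than germ-like cells as a whole, but only the myoid-like and stroma-like intervals lay above the germ-like one. Sertoli-like cells held 51.3 and 101.6 CPM, a log2 ratio of 0.99 (0.92 to 1.06). Myoid-like cells held 19.1 and 55.5, a ratio of 1.54 (1.36 to 1.71), and stroma-like cells 33.2 and 94.8, a ratio of 1.51 (1.41 to 1.62). Macrophage-like and endothelial-like cells gave 0.73 (0.21 to 1.26) and 1.43 (0.60 to 2.30). In each of 15 clusters with at least 5 cells of each library the value was higher in *Cnot3*-cKO with an interval above 0, from 0.73 to 2.12.

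Cell-free barcodes, with at most 100 UMIs each, gave 31.3 and 64.8, a ratio of 1.05 (0.81 to 1.29). After free RNA was subtracted the ratio stayed at 0.90 in germ-like and 0.98 in Sertoli-like cells. With cells thinned to 10000 UMIs, 37.5% (35.6 to 39.4) of control and 60.7% (59.1 to 62.2) of *Cnot3*-cKO Sertoli-like cells held a *Slc38a9* UMI, against 47.4% and 69.9% unthinned. In stroma-like cells the thinned shares were 26.3% (24.3 to 28.4) and 57.3% (54.9 to 59.7). More cells of each kind thus carried the transcript in *Cnot3*-cKO at matched depth.

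Among 10163 genes with at least 100 UMIs in Sertoli-like, myoid-like and stroma-like cells, *Slc38a9* ranked 1 by its smallest ratio over the 3, 0.99. Only 10 of those genes were past 1.5-fold higher in all 3 kinds, and the immediate early genes *Fosb* and *Fos* came next. Its nearest measured neighbour is *Ddx4* (chr13:112598333-112652475, minus strand), the gene whose sequences drive the Cre, with 8275 bases between the 2 annotated genes, which point away from each other.

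In somatic cells the other genes of the region lay near equal levels or below. Within about 1000 kb on each side, 10 other genes were measured in Sertoli-like cells with ratios from -0.58 to 0.16, and 12 in stroma-like cells from -0.32 to 0.13. In germ-like cells the 11 measured ran from -0.53 to 0.79, the highest being *Hspb3*, with 82 and 65 UMIs. *Ddx4* itself stood at 274 (control) and 336 CPM (*Cnot3*-cKO) in germ-like cells, a ratio of 0.30, and at 2.99 and 2.24 in Sertoli-like cells. An antisense gene listed inside *Slc38a9* had at most 1 UMI in any of the 4 main cell kinds of either library. *Cnot3* itself stood at 63.8 and 67.5 CPM in Sertoli-like, 44.7 and 44.4 in myoid-like and 45.5 and 44.6 in stroma-like cells, control first. The Cre transgene, the loss of *Cnot3* in germ cells and the library all separate the same 2 groups here and cannot be told apart. The labelled last injection days differ between the groups too, but they are at odds with the study's methods, as given above.

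**Figure D2:**
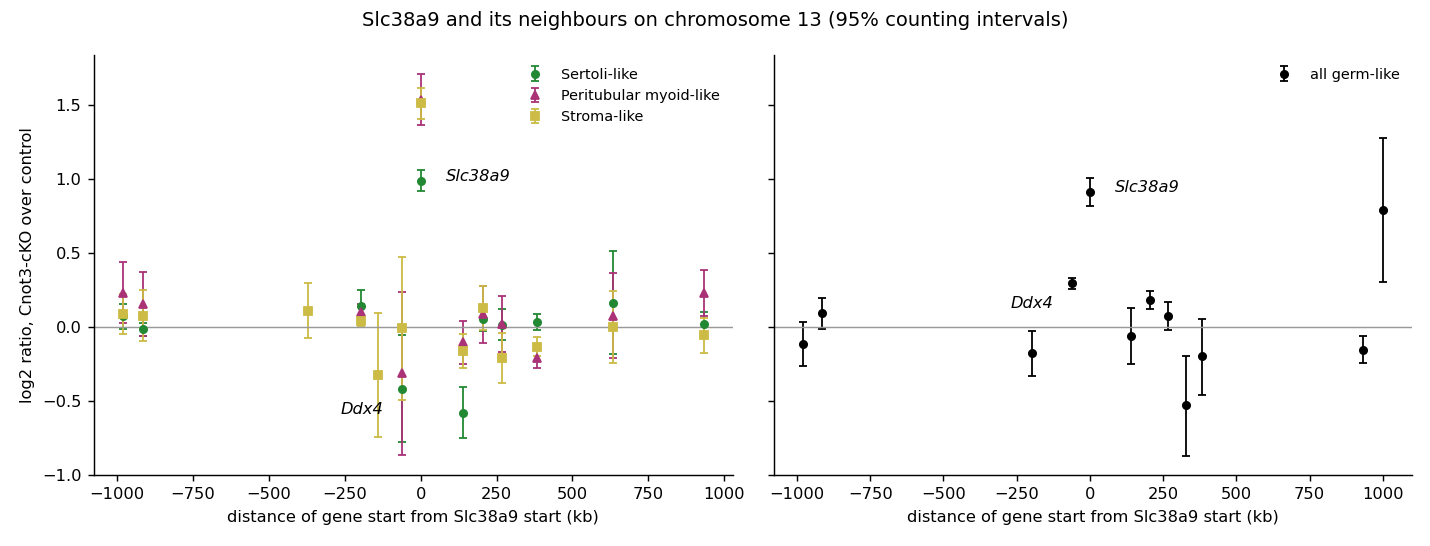
Log2 ratio of Cnot3-cKO over control (vertical axis) for Slc38a9 and genes whose start lies within about 1000 kb of it on chromosome 13 (horizontal axis, kb from the Slc38a9 start), in 3 somatic cell kinds (left) and germ-like cells (right), for genes with at least 100 UMIs, with 95% counting intervals. Slc38a9 stands at 0.99 to 1.54 in somatic cells, and every other gene of the region is at or below 0.23 there.

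The Rag GTPases work as pairs, RRAGA or RRAGB with RRAGC or RRAGD, and *Rragc* and *Rragd* had different spreads over the cell kinds, with both present in Sertoli-like cells. *Rragd* (chr4:32983037-33022180, plus strand) was highest in SSC-like and Progenitor-like cells. In control it was at 142 CPM (95% interval 134 to 149) in SSC-like and 145 CPM (95% interval 138 to 152) in Progenitor-like cells, whose intervals overlapped. It then stood at 11.7 in Differentiating-like and 2.52 in Meiotic-like cells, the SSC-like level being 12.1-fold the Differentiating-like one. The unnamed germ cluster, whose leading genes included the differentiation marker *Stra8*, held 96.2 in control. Sertoli-like cells held 39.1, and the other somatic kinds 3.72 (stroma-like) to 9.79 (macrophage-like).

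*Rragd* was the only member past 1.5-fold lower over all *Cnot3*-cKO germ-like cells, with 86.3 CPM in the control library and 50.3 in the Cnot3-cKO library and a log2 ratio of -0.78 (-0.87 to -0.69). SSC-like cells held 142 and 67.6, a ratio of -1.07 (-1.19 to -0.95). Progenitor-like cells gave -0.82 (-1.35 to -0.34), Differentiating-like cells -0.79 (-1.59 to -0.07), the unnamed germ cluster -0.84 (-1.21 to -0.50) and the mixed clusters -0.81 (-1.04 to -0.59). Of 7 germ clusters with at least 5 cells of each library, 6 had an interval below 0, the exception being the Meiotic-like one, with 13 and 5 UMIs. With the control stage mix over the named stages, *Rragd* kept its sign, at -0.92, where that of *Ddit4* had changed.

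Within the SSC-like cells, both clusters of *Cnot3*-cKO cells lay below control, at 95.6 CPM in the shared cluster, where control cells had 142, and 64.2 in the other. A thinned *Rragd* UMI was found in 68.1% (62.0 to 73.9) of control and 40.8% (35.2 to 46.5) of *Cnot3*-cKO SSC-like cells, against 3.55% and 2.41% of stroma-like cells. With centred libraries the SSC-like and Progenitor-like ratios were -1.23 (-1.48 to -0.98) and -0.92 (-1.13 to -0.72), but the Differentiating-like cells formed that way held 29.4 and 39.4 CPM, a ratio of 0.42 (0.21 to 0.63). Sertoli-like cells, which the Cre is not meant to reach, had *Rragd* at 39.1 and 41.9, a ratio of 0.10 (0.01 to 0.19). Stroma-like and myoid-like cells, with few *Rragd* UMIs, gave -0.39 (-0.82 to 0.04) and -0.30 (-0.62 to 0.02).

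Among the named cell kinds of control, *Rragc* (chr4:123917446-123936997, plus strand) was lowest where *Rragd* was highest. In control it was highest in macrophage-like cells at 71.8 CPM, lay at 54.4, 53.7 and 46.0 in Sertoli-like, myoid-like and stroma-like cells, and was at 14.9 CPM (95% interval 12.5 to 17.5) in SSC-like and 14.6 CPM (95% interval 12.5 to 17.0) in Progenitor-like cells. It was higher in later germ cells, with 19.4 in Differentiating-like and 31.8 CPM (95% interval 27.1 to 37.0) in Meiotic-like cells, as *Rragd* was lower. In *Cnot3*-cKO SSC-like cells *Rragc* was at 9.65, a ratio of -0.62 (-0.97 to -0.28), past 1.5-fold lower. With centred libraries that ratio was -0.12 (-0.75 to 0.51), within counting error. Over all germ-like cells the *Rragc* ratio was -0.31 (-0.48 to -0.14), and in Sertoli-like cells 0.05 (-0.03 to 0.13). In macrophage-like cells it was at 71.8 and 124 from 88 and 141 UMIs, with germ cell RNA in the control class as given above.

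Of the partners, *Rraga* lay between 45.5 and 69.9 CPM in the control germ stages and at 71.5 in Sertoli-like cells, with a ratio of 0.42 (0.35 to 0.50) in germ-like cells. *Rragb* ran from 0.163 in myoid-like and 0.201 in stroma-like cells to 9.90 in Sertoli-like cells of control, with 2.75 in germ-like cells.

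*Rheb* and *Rhebl1*, which encode the GTPases that switch mTORC1 on, ran in opposite directions along the germ stages. *Rheb* (chr5:24802823-24842624, minus strand) was at 139 CPM (95% interval 131 to 146) in control SSC-like and 138 CPM (95% interval 131 to 145) in Progenitor-like cells, then 218 CPM (95% interval 209 to 227) in Differentiating-like and 290.0 CPM (95% interval 275 to 305) in Meiotic-like cells. The Meiotic-like level was 2.09-fold the SSC-like one in control and 2.40-fold in *Cnot3*-cKO. Somatic cells lay between 143 and 201 in control. *Rhebl1* (chr15:98877778-98894540, minus strand) was at 69.3 CPM (95% interval 64.2 to 74.8) in SSC-like and 47.6 CPM (95% interval 43.7 to 51.8) in Progenitor-like cells, and at 5.29 in Differentiating-like and 1.74 in Meiotic-like cells. The unnamed germ cluster, with *Stra8* among its leading genes, held 56.6 in control. Sertoli-like cells held 8.31, and *Rhebl1* spans the Sertoli gene *Dhh* on the same strand, which was at 227 there, so its somatic reads are uncertain.

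Between the genotypes, *Rhebl1* was level within SSC-like and within Progenitor-like cells, while *Rheb* was somewhat lower in both in *Cnot3*-cKO. In the SSC-like cluster that both libraries filled, *Rheb* was -0.18 (-0.41 to 0.04) and *Rhebl1* -0.23 (-0.56 to 0.09), both within counting error. *Rhebl1* in SSC-like cells was at 69.3 and 69.9, a log2 ratio of 0.01 (-0.13 to 0.15), and in Progenitor-like cells at 47.6 and 47.1. Over all germ-like cells it was 0.32 (0.22 to 0.42), and with the control stage mix 0.01. *Rheb* was -0.27 (-0.37 to -0.16) in SSC-like, 0.05 (-0.08 to 0.18) in Differentiating-like and -0.07 (-0.20 to 0.07) in Meiotic-like cells. Progenitor-like *Rheb* was -0.70 (-1.22 to -0.22), from 36 *Cnot3*-cKO UMIs. In Sertoli-like cells *Rheb* and *Rhebl1* gave -0.03 (-0.08 to 0.01) and -0.06 (-0.26 to 0.14).

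**Figure D3:**
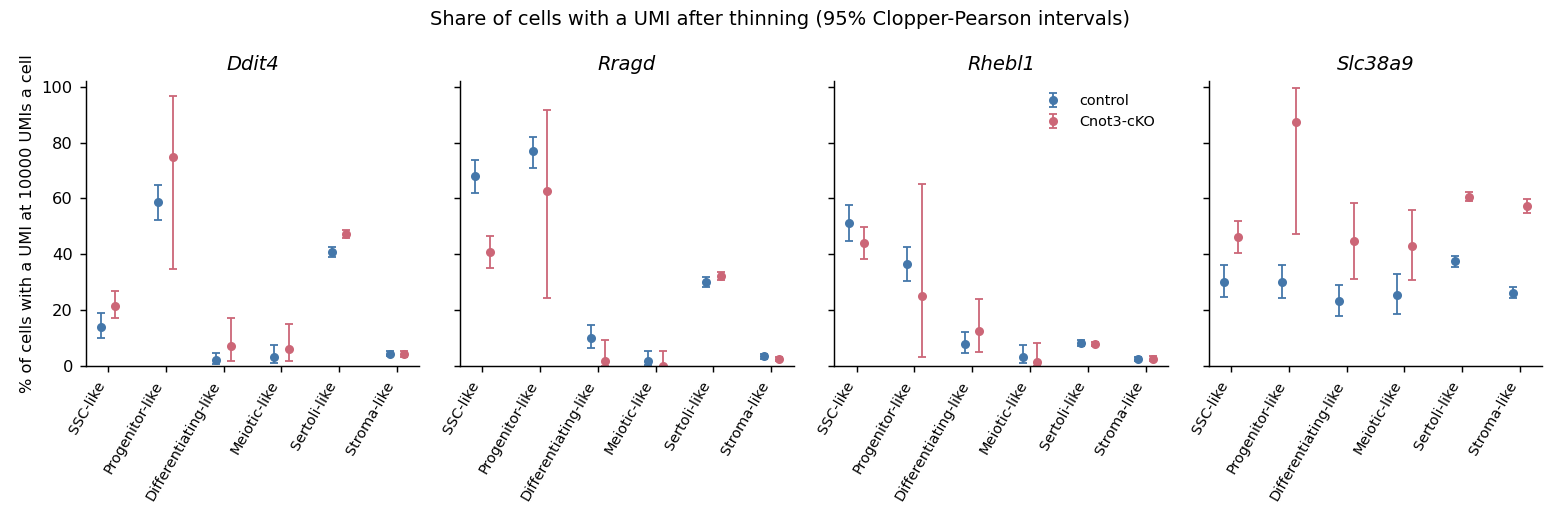
Share of cells (vertical axis, percent) with at least 1 UMI of Ddit4, Rragd, Rhebl1 or Slc38a9 after each cell was thinned to 10000 UMIs, by germ stage and in Sertoli-like and stroma-like cells, control in blue and Cnot3-cKO in red, with 95% Clopper-Pearson intervals. Ddit4, Rragd and Rhebl1 are found in few Differentiating-like and Meiotic-like cells, while Slc38a9 is higher in Cnot3-cKO in each group.

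*Mtor*, *Rptor* and *Tsc2* encode the kinase, its substrate-binding partner raptor and tuberin, the TSC subunit that acts on RHEB. *Mtor* (chr4:148448611-148557683, plus strand) and *Tsc2* (chr17:24595816-24632630, minus strand) were both higher in the germ line than in the soma. In control, *Mtor* lay between 39.9 (SSC-like) and 64.3 (Differentiating-like) CPM in the germ stages and between 10.9 (stroma-like) and 27.8 (endothelial-like) in somatic cells. *Tsc2* lay between 27.9 and 36.6 in the germ stages and between 11.4 and 19.6 in somatic cells, the Differentiating-like interval standing just above those of Progenitor-like and Meiotic-like cells. The *Mtor* interval of SSC-like cells lay below those of the other 3 stages. Germ-like over Sertoli-like cells gave a log2 ratio of 1.65 (1.54 to 1.77) for *Mtor* and 1.15 (1.02 to 1.28) for *Tsc2* in control, and 1.54 (1.42 to 1.66) and 1.0003 (0.86 to 1.14) in *Cnot3*-cKO. *Tsc2* overlaps the end of *Pkd1* on the opposite strand, and whether reads were counted by strand was not given in the sources used here.

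*Rptor* (chr11:119602905-119899576, plus strand) was highest in Progenitor-like cells among the control germ stages, at 29.7 CPM (95% interval 26.6 to 33.0), against 17.0 CPM (95% interval 14.5 to 19.8) in SSC-like and 16.4 CPM (95% interval 13.995 to 19.0) in Differentiating-like cells. Thus the stage richest in *Ddit4* was also the germ stage richest in *Rptor*. Between the genotypes, the 3 genes differed by less than 1.5-fold. In germ-like cells the ratios were -0.13 (-0.22 to -0.03) for *Mtor*, -0.32 (-0.49 to -0.16) for *Rptor* and -0.10 (-0.22 to 0.03) for *Tsc2*. In SSC-like cells they were 0.28 (0.10 to 0.47), -0.20 (-0.50 to 0.10) and -0.13 (-0.34 to 0.08), and in Sertoli-like cells -0.01 (-0.15 to 0.13), 0.21 (0.08 to 0.35) and 0.05 (-0.10 to 0.20). In the SSC-like cluster that both libraries filled, the same 3 genes gave -0.16 (-0.59 to 0.25), -0.02 (-0.67 to 0.59) and -0.24 (-0.72 to 0.21).

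**Figure D4:**
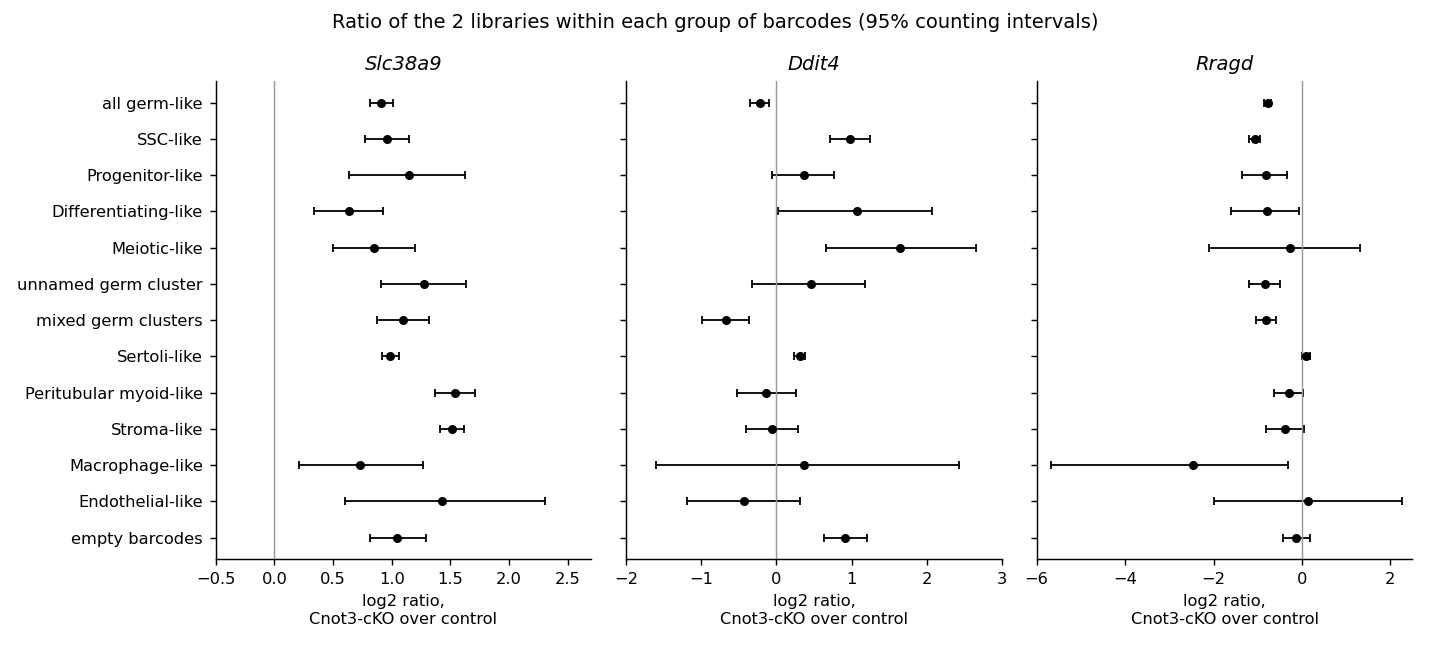
Log2 ratio of Cnot3-cKO over control (horizontal axes, with different ranges) for Slc38a9, Ddit4 and Rragd in each group of barcodes, with 95% counting intervals, the grey line marking equal levels. Slc38a9 is above 0 in every group, Ddit4 is above 0 in each named germ stage but below 0 over all germ-like cells, and Rragd is below 0 in the germ groups and near 0 in Sertoli-like cells.

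The rest of the pathway was read from 60 other genes in lists of the complexes and sensors around mTORC1. In germ-like cells, 2 of 60 were past 1.5-fold higher and 1 lower, beside 6.8% and 3.11% of all genes, with a median log2 ratio of -0.01 beside 0.02 for all genes. Those higher were *Prr5l*, an mTORC2 subunit, at 0.67 (0.07 to 1.26) from few UMIs, and *Tfeb*, a lysosome regulator that mTORC1 holds out of the nucleus, at 0.82 (0.50 to 1.14). The one lower was the growth factor kinase gene *Akt1*, at 45.3 and 27.1 CPM and -0.74 (-0.87 to -0.62). In Sertoli-like, myoid-like and stroma-like cells, 0 of 58 were past 1.5-fold in either direction in each kind, with medians of 0.12, 0.01 and 0.01. These counts cover genes with at least 100 UMIs in the kind, so *Prr5l* is outside them, at 0.217 and 1.59 CPM in myoid-like cells (4 and 34 UMIs) and 0.57 and 0.176 in stroma-like cells (17 and 5 UMIs).

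In SSC-like cells, 6 of 56 other pathway genes were past 1.5-fold higher and 2 lower, with a median of -0.01, beside 10.1% and 4.6% of all genes, so these counts were close to the background and the genes are named as values only. Those higher included *Tbc1d7*, the third TSC subunit, at 30.3 and 49.2 CPM, *Nprl2* of GATOR1, a brake on the Rag GTPases, at 11.9 and 19.1, and *Wdr24* of GATOR2 at 7.08 and 12.8. *Tfeb* was at 2.56 and 6.57 and the arginine sensor gene *Castor1* at 3.18 and 5.60, and *Ddit4l*, given above, was the other. The lower ones were the PI3 kinase gene *Pik3ca* at 48.9 and 28.4 and *Eif4ebp2*, a translation repressor that mTORC1 inactivates, at 72.7 and 42.5. None of the 5 Ragulator genes, which anchor the Rag GTPases, was past 1.5-fold, with a median of -0.13.

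Over 18 profiles, the 9 cell kinds of both libraries, the genes with the pattern most like *Ddit4* by Pearson's r of log2(CPM + 1), among 12654 genes with at least 500 UMIs, were *Fbxw11* (0.89), *Pnkd* (0.89), *Bend7* (0.89), *Mrpl34* (0.88) and *Ccnjl* (0.88). Those most like *Slc38a9* were *Tsc1* (0.72), *Wdr19* (0.62), *Tmem106c* (0.59), *RP23-221O14.10* (0.59) and *Tbcel* (0.57). *Slc38a9* thus had no close match, the nearest being *Tsc1*, the partner of *Tsc2*. Among the members themselves, *Rragd* and *Rhebl1* gave 0.91 and *Mtor* and *Tsc2* 0.90, while *Rragc* and *Tsc2* gave -0.86. The profiles share 2 libraries and their free RNA, so these are descriptions.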

How the data were processed

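Testis cells of control and *Cnot3*-cKO mice were profiled with 10x 3′ single-cell libraries. The authors aligned reads and counted UMIs with Cell Ranger 3.0.1 on mm10 and deposited raw counts for all barcodes, 1 matrix a genotype merging 2 labelled samples, so n was 1 library a side. No columns of other samples were used.

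From those counts, cells were called at a UMI total of at least 1/10 of the 99th percentile of the leading barcodes (7977 and 7664 UMIs) and kept with at most 20% mitochondrial UMIs. This left 8259 and 9268 cells. The study's stated filter, at most 10% mitochondrial UMIs and totals within 2 SD of the mean, left 5615 and 6034 cells but few germ cells, and served as an alternative. The study reported fewer cells for each genotype than this filter left here, so its own cell set was not rebuilt. Leiden clusters (resolution 0.5, 2500 variable genes, 30 components, 15 neighbours, scanpy 1.11.5) were named from at least 3 detected markers, with naming rules settled after the data were seen. A difference from the study may come from these rebuilt names. Scrublet marked 498 and 448 doublets, kept here and left out as an alternative. UMIs were summed per cell kind. Intervals for levels (Poisson), shares (Clopper-Pearson) and ratios (conditional binomial) were exact at 95% (scipy 1.17.1), were checked on simulated data, and cover counting error only. PCR duplicates were collapsed by UMI. Gene positions came from GENCODE M21 (GRCm38), with 30766 of 30828 gene IDs matched.

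The 9 genes and all lists were chosen with earlier results of these data known. Named with values were the 9 members, up to 4 genes of each pathway list (most UMIs, or past 1.5-fold with an interval excluding 0) and the 5 genes most like *Ddit4* and *Slc38a9* in pattern. *Ddit4l* and the *Slc38a9* neighbours were described beside them. The 12 alternatives covered cell filters, doublets, clustering, centring, free RNA, normalisation, depth, germ cell definition and stage mix.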

Additional observations from a re-analysis of the deposited data

Results flagged for a closer look

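In 3 genes the ratio of *Cnot3*-cKO over control had opposite signs in germ-like and Sertoli-like cells, with counting intervals on either side of 0, and with 1 library a genotype the difference between the cell kinds was not tested. *Ddit4* had a log2 ratio of 0.31 in Sertoli-like and -0.22 in germ-like cells. *Rragd* had 0.10 in Sertoli-like and -0.78 in germ-like cells. *Rptor* had 0.21 in Sertoli-like and -0.32 in germ-like cells. The *Ddit4* sign in germ-like cells turned with the cell filter and the stage mix, as given with the processing alternatives.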

How the results depend on the processing

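Of 66 values recomputed for *Ddit4* and *Slc38a9*, 54 moved by less than their counting interval, 9 moved by more with the same sign and 3 changed sign. All 3 were *Ddit4* in germ-like cells, at -0.22 and then 1.13 with the study's stated filter, 0.09 with at most 10% mitochondrial UMIs and no upper bound, and 0.50 with the control stage mix. Under those 2 filters and with the median of all genes set to 0, *Ddit4* in germ-like over Sertoli-like control cells was -1.73, -1.21 and -1.02, from -0.81, and *Slc38a9* was -0.51, -0.53 and -0.84, from -0.63. *Slc38a9* between the genotypes was 1.07 in Sertoli-like cells with at most 10% mitochondrial UMIs, from 0.99, and in germ-like cells 1.03 after thinning and 0.78 over the 4 named stages alone, a setting added after seeing the data, from 0.91. Among the other 7 genes, 73 of 91 values moved within their interval and 3 changed sign. *Mtor* went from -0.13 to 0.25 with the stated filter and 0.03 with the control stage mix, and *Rragc* from -0.31 to 0.11 with the stated filter. *Rragd* stayed between -0.93 and -0.57. The cause of these shifts was not tested. No paired analysis was possible because both samples of a genotype share 1 matrix, and for the same reason no replicate could be left out. Depth limits the *Cnot3*-cKO Progenitor-like values, which rest on 8 cells.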

Other observations

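Besides *Slc38a9*, a run of genes on chromosome 14 was higher in *Cnot3*-cKO in germ and somatic cells alike, a set chosen after its values were seen. It holds 13 genes measured in Sertoli-like cells with starts between 86.7 and 101.7 Mb, among them the actin regulator gene *Diaph3*, *Tdrd3*, the exosome nuclease gene *Dis3*, *Pibf1*, the mitotic gene *Bora*, *Klf12* and *Tbc1d4*, a Rab GTPase regulator of glucose uptake. Their median log2 ratio was 0.59 in Sertoli-like cells, with 12 of 13 above 0, 0.65 in myoid-like cells (11 of 13), 0.58 in stroma-like cells (12 of 13) and 0.55 in germ-like cells (10 of 11). Genes lower in *Cnot3*-cKO in the same 4 kinds included the growth factor receptor gene *Fgfr1*, at -1.47 in germ-like, -1.05 in Sertoli-like, -0.99 in myoid-like and -1.04 in stroma-like cells, and *Clasrp*, at -1.09, -1.07, -1.04 and -0.96. With 1 library a genotype these were not tested.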
